A study of Drosophila melanogaster with 2 samples.

Results

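The Toll and Imd immune pathways of *Drosophila melanogaster* were followed here through 10 of their genes, out of 13945 protein-coding genes in the annotation. The genes were chosen by name, with earlier results of these data known. They are *Tl*, *cact*, *dl* and *Dif* of the Toll pathway, and *PGRP-LC*, *PGRP-LE*, *imd*, *Dredd*, *key* and *Rel* of the Imd pathway. The data are chromatin immunoprecipitation peak lists for CG12768, a MADF domain protein, in whole adult males of 1 transgenic line that stably expresses it with GFP at its C terminus. The antibody was against GFP, chromatin was sonicated to 200-800 bp, and the labels give 2 biological replicates, whose age is unknown. Every fly carried the tagged protein, and no untagged flies, mock precipitation or infected flies were analysed here, so there is 1 group and no difference between conditions to test. Whole flies mix all tissues, so a peak cannot be assigned to the fat body, blood cells, gut or any other site.

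Flies sense bacteria and fungi through 2 cascades that both end in transcription factors of the NF-κB family. In the Toll pathway, proteases outside the cell activate the ligand Spätzle, which binds the receptor Toll; the inhibitor Cactus is then degraded and releases Dorsal and Dif. In the Imd pathway, peptidoglycan recognition proteins signal through the adaptor Imd, the caspase Dredd and a kinase complex that contains Kenny, the product of *key*, and this leads to cleavage of Relish and to expression of antimicrobial peptides.

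The DNA under a CG12768 peak was read at its summit, the point of highest signal that the authors' peak caller gave. The 7 stretches were chosen because the results turn on them: the intron summit of *Tl*, the promoter summit and the strongest distal intron summit of *cact*, the promoter summit at an internal start of *dl*, the strongest summit of *Dif*, and the summits at both internal start clusters of *PGRP-LC*. Each was read from the RefSeq genome of Release 6, the same assembly as dm6, on the strand of its gene, 5′ to 3′. Windows at a start end inside the first bases of the transcript, which shortened the *dl* and *PGRP-LC* windows. Capitals mark a repeated trinucleotide in *Tl* and the word CACACA in *cact*, and they mark the first 10 bases from each annotated start in *dl* and *PGRP-LC*. The *Dif* window has no capitals because it holds none of these. The *Tl* window is chr3R:26799657-26799856, plus strand. The *cact* windows are chr2L:16325737-16325936 for the promoter and chr2L:16315050-16315249 for the distal intron, minus strand. The *dl* window is chr2L:17448501-17448661 and the *Dif* window chr2L:17430152-17430351, both minus strand. The *PGRP-LC* windows are chr3L:9340306-9340463 and chr3L:9344031-9344209, plus strand.
Tl intron: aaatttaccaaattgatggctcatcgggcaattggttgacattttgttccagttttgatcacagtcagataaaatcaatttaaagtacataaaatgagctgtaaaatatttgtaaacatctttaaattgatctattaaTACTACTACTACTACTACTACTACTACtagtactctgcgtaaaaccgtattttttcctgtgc
cact promoter: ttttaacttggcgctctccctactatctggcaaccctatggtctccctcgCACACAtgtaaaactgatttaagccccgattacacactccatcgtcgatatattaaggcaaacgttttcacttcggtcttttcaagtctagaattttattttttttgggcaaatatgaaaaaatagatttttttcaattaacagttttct
cact distal intron: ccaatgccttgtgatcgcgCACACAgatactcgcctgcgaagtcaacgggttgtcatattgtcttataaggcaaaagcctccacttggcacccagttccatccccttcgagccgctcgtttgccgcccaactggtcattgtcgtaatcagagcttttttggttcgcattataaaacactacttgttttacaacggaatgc
dl internal start: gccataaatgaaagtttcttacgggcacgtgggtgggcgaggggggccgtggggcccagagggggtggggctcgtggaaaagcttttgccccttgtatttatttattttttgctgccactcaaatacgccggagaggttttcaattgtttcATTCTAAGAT
Dif intron: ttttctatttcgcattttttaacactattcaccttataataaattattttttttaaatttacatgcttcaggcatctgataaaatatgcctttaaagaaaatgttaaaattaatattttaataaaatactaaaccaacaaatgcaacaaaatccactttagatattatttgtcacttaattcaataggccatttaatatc
PGRP-LC internal starts: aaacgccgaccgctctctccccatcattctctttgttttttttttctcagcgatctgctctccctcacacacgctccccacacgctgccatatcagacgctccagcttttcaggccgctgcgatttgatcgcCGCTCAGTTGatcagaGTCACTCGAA
PGRP-LC last start: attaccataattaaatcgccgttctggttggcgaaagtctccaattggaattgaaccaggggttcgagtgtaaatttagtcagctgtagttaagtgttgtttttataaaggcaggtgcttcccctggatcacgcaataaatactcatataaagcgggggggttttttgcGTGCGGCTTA

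Of the members, 6 had a CG12768 peak at a start in the list that the authors thresholded on agreement between the replicates. Single peaks in that list can still lack a summit within 100 bp in 1 replicate, as described below. That list holds 6066 peaks, and a promoter summit is defined here as one within 500 bp of any annotated protein-coding transcript start. The 6 of 10 were *cact*, *dl*, *Dif*, *PGRP-LC*, *imd* and *Rel*, and of all protein-coding genes 3613, or 25.9%, had such a summit. *Tl* had a summit in its body but not at its start, so that 7 of 10 genes had a summit at a start or in the body, where the share of all genes was 29.8%. *PGRP-LE*, *Dredd* and *key* had neither. No test was made of these counts, because the genes were chosen and are few.

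All 4 Toll genes are at least 10 kb long and 4 of 4 had a summit at a start or in the body, while 51.0% of all genes of that length did. The 6 Imd genes are shorter, and 3 of 6 had one (*PGRP-LC*, *imd* and *Rel*), while 26.3% of all genes under 10 kb did. Both X-linked members, *PGRP-LE* and *Dredd*, lacked a promoter summit (0 of 2), where 17.8% of all X-linked genes had one. The part of length or chromosome in the members' counts was not tested.

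**Figure D1:**
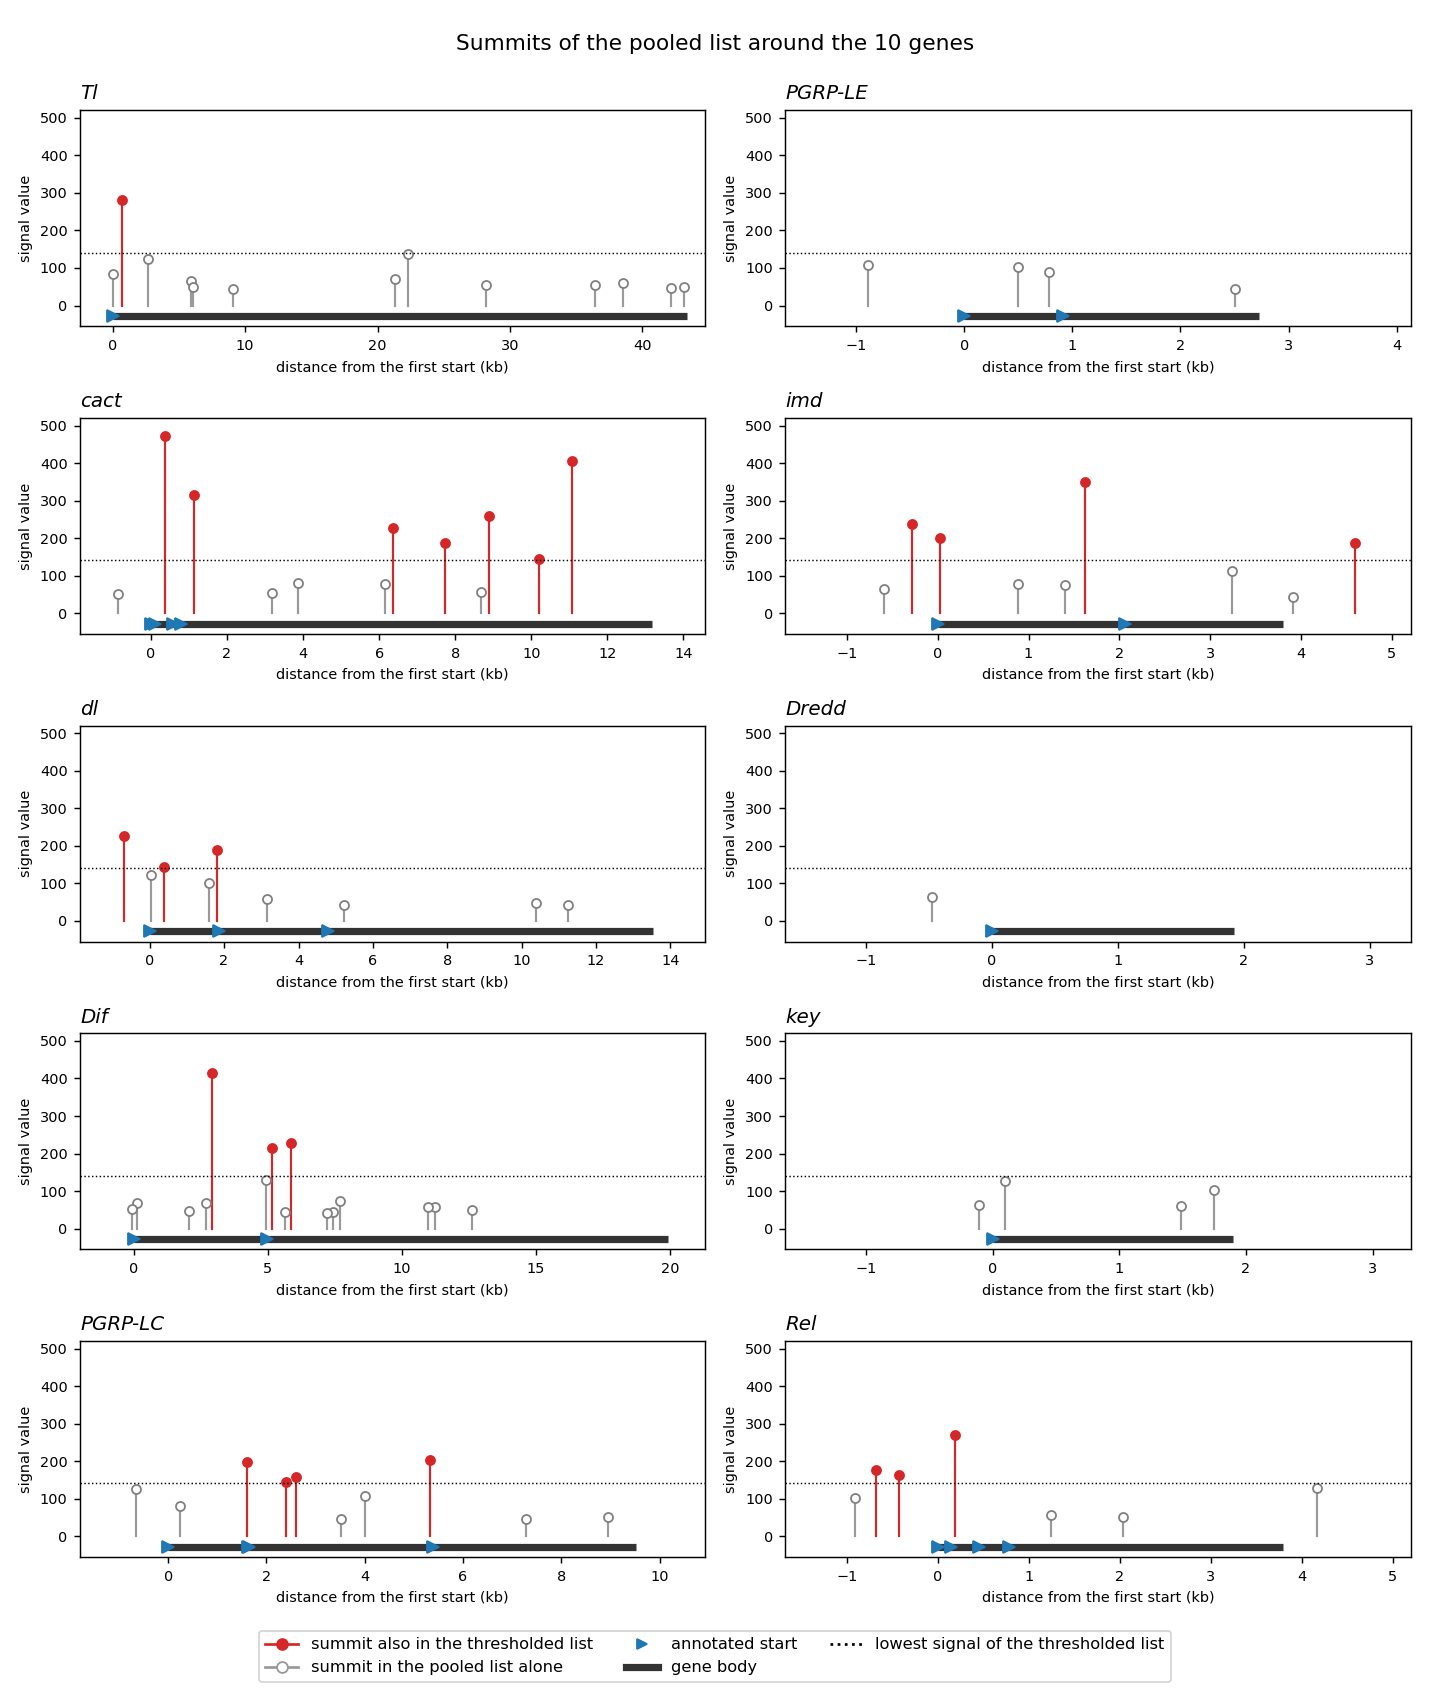
Signal value of every summit in the pooled list (vertical axis, the caller's scale) against the distance in kb from the first start of each of the 10 genes, in the direction of transcription. Filled points are also in the thresholded list, open points are not, triangles are annotated starts, the bar is the gene body and the dotted line is the lowest signal of the thresholded list, 141; filled points more than 500 bp upstream of a start or beyond the end of *dl*, *imd* or *Rel* are not counted for that gene. *cact* has 7 filled points, and *PGRP-LE*, *Dredd* and *key* have none.

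The signal value ranks peaks within a list but its scale is not stated, so it is given below with its rank, 1 being the highest. The thresholded list equals the 6066 peaks of highest signal among the 30000 of the authors' pooled list, and its signals run from 141 to 4110.4 with a median of 223. The lists of the single replicates hold 30000 peaks each, background included, with medians of 39.7 in replicate 1 and 36.0 in replicate 2. A replicate's rank is given for a summit where that replicate's nearest summit lay within 100 bp of it. The members' 22 thresholded summits ran from 142.6 to 471.2 with a median of 221, and 11 of 22 lay among the 3033 peaks of highest signal. The members' median was thus close to that of the list, and the 3 highest, in *cact* and *Dif*, ranked 764, 999 and 1057.

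Toll, the receptor encoded by *Tl* (FBgn0262473), lies on 3R at 26799041-26842403, plus strand, in dm6 coordinates, which are used throughout. Its 3 transcripts share 1 start. The 1 thresholded summit in its 43.4 kb stood in an intron 716 bp downstream of that start, with a pooled signal of 280.9 and rank 2080. The replicates placed it apart, at rank 5007 in replicate 1 (signal 92.3) and at rank 1287 in replicate 2 (signal 190.7). The window printed above for this summit holds the trinucleotide tandem, which runs for 27 bases. At the start itself the pooled list held only a low peak, 17 bp upstream, with signal 83.5 and rank 11993; the ranks at the start were 8680 in replicate 1 and 10878 in replicate 2. The pooled list had 12 summits in the gene body, and 1 of them, 22285 bp from the start, fell just short of the threshold. It had a pooled signal of 138.1 and rank 6252. The replicates differed there, with rank 17320 in replicate 1 (signal 35.6) and rank 3605 in replicate 2 (signal 97.1).

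Cactus, the inhibitor that holds Dorsal and Dif in the cytoplasm, had more thresholded CG12768 summits than any other member. In the pooled list *Dif* had 15 at a start or in the body and *Tl* 13, against 11 for *cact*. *cact* (FBgn0000250, 2L at 16313036-16326207, minus strand) held 7 thresholded summits in 13.2 kb, or 5.31 per 10 kb. Only 86 protein-coding genes of any length (0.617%) held as many as *cact* or more. Its highest summit lay in an intron 212 bp upstream of the start of transcripts RB and RC, with a pooled signal of 471.2 and rank 764. It ranked 1353 in replicate 1 (signal 189.0) and 619 in replicate 2 (signal 283.9), so it stood high in both. The gene has 4 starts within 787 bp, and this summit is within 500 bp of each of them. A narrow second promoter peak had its summit in the 5′ UTR, 348 bp downstream of the last start, with a signal of 314.6, and it ranked 1203 in replicate 1 and 2635 in replicate 2.

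The other 5 *cact* summits formed a row in the introns, 5574 to 10270 bp downstream of the nearest start. They span 4.7 kb, and neighbouring summits were 863 to 1381 bp apart. Their pooled signals, going downstream, were 228.1, 185.9, 257.7, 143.7 and 404.4. In replicate 1 the same 5 had signals of 142.2, 81.0, 153.6, 83.8 and 321.6. In replicate 2 they had signals of 83.1, 106.6, 103.2, 56.6 and 87.4. The last of the row therefore stood out in replicate 1, at rank 428, and did not in replicate 2, at rank 4209. That 9.83-fold ratio of ranks was the widest among the members' matched summits.

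Dorsal and Dif are the transcription factors that Cactus releases; Dorsal also sets the dorsoventral axis of the embryo. Their genes are neighbours on 2L, 3.67 kb apart and both on the minus strand, and both carried promoter summits at an internal start. *dl* (FBgn0260632, 17436830-17450364) had a summit 52 bp upstream of the start of dl-RE, 1854 bp into the gene, with signal 189.6 and rank 3910. It ranked 3679 in replicate 1 and 5056 in replicate 2. At its first start the summit was downstream, by 384 bp in the 5′ UTR, and just above the threshold, with signal 142.6 and rank 5998. It ranked 3599 in replicate 1, while replicate 2 had no summit within 100 bp. The third start, of dl-RD and dl-RF, had no summit above the threshold and a pooled signal of 41.3 at best.

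*Dif* (FBgn0011274, 17413248-17433161) held 3 thresholded summits, none of them at its first start. The highest was in an intron 2053 bp upstream of the second start, with a pooled signal of 415.3 and rank 999. Both replicates ranked it high, at 985 in replicate 1 (signal 220.1) and 1207 in replicate 2 (signal 198.4). The G and C content of its 200 bp window, printed above, was 21.5%, the lowest of the 22 member windows. The second start, shared by transcripts RA, RB and RC, had a summit 180 bp downstream in the 5′ UTR with signal 213.9, ranking 2383 in replicate 1 and 4802 in replicate 2. Another summit lay 892 bp downstream of that start, with signal 229.4, and it ranked 5485 in replicate 1 and 1781 in replicate 2. The first start, of Dif-RD, had a pooled signal of 69.4 at best, rank 15056.

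Of the receptors of the Imd pathway, the membrane protein PGRP-LC had thresholded peaks. PGRP-LE, which senses peptidoglycan inside cells or as a secreted form, had peaks below the threshold only. *PGRP-LC* (FBgn0035976, 3L at 9338810-9348336, plus strand) has 4 starts for 10 transcripts, and the summits were at the later ones. The first of these summits lay 32 bp upstream of the start of transcripts RA, RB, RC, RG and RI and 48 bp upstream of that of RH, with signal 198.3 and rank 3665. It ranked 3361 in replicate 1 (signal 117.7) and 4073 in replicate 2 (signal 89.4). The second lay 69 bp upstream of the start of RE, RJ and RK, with signal 202.2 and rank 3546, and ranked 2711 in replicate 1 (signal 134.0) and 6570 in replicate 2 (signal 64.1). Both windows are printed above, and the 2 summits had nearly the same pooled signal; the RH and RE starts are 3746 bp apart. The first start, of RD, had 80.2 at best in the pooled list, rank 12598. A further pair of intron summits, 755 and 954 bp downstream of the RH start with signals of 143.6 and 157.2, ranked lower. The nearer one ranked 3951 in replicate 1 and had no match in replicate 2, and the farther one ranked 8452 in replicate 1 and 8521 in replicate 2.

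*PGRP-LE* (FBgn0030695, X at 15801153-15803880, minus strand) reached a pooled signal of 102.0 at most, with its summit between its 2 starts, 415 bp upstream of the second. That is rank 9321, below the threshold. In replicate 2 the same summit was the highest-ranking one at a start, at rank 6767 with signal 62.7. In replicate 1 its match ranked 11579 with signal 49.0. The highest-ranking summit at a start in replicate 1 was elsewhere, 105 bp downstream of the second start, with rank 8707 and signal 61.7.

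Imd, the adaptor that gives the pathway its name, had summits at both of its starts. *imd* (FBgn0013983, 2R at 18409796-18413599, minus strand) overlaps *Dp1*, a gene for a KH domain protein on the opposite strand. Its highest summit was in an intron 451 bp upstream of imd-RA, with a pooled signal of 348.9 and rank 1405, and the same summit was 44 bp from a *Dp1* start. Replicate 1 ranked it 1585 (signal 176.6) and replicate 2 ranked it 1437 (signal 179.7). At the first start, imd-RB, one summit lay 30 bp downstream with signal 199.9 and another 281 bp upstream with signal 237.2. The downstream one ranked 2183 in replicate 1 (signal 151.1) and had no match in replicate 2. The upstream one ranked 3650 in replicate 1 (signal 112.4) and 2441 in replicate 2 (signal 125.6). All 3 were also within 500 bp of a *Dp1* start, so a summit here cannot be given to 1 of the genes by position. The summits at 451 and 281 bp were nearer to a *Dp1* start than to one of *imd*. In replicate 2 their matches were too.

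Dredd, the caspase that cleaves Imd and Relish, and Kenny, the regulatory subunit of the kinase complex, had weak peaks below the threshold. *Dredd* (FBgn0020381, X at 633622-635545, minus strand) had a single pooled summit, 473 bp upstream of its start, with signal 63.9 and rank 16742. It ranked 17994 in replicate 1 (signal 34.6) and 19617 in replicate 2 (signal 30.1), the lowest of the members in all 3 lists. The pooled summit lay inside *su(sable)*, 128 bp from a start of that gene, so it cannot be given to *Dredd* by position. Its matches were 28 bp from that start in replicate 1 and 29 bp in replicate 2. *key* (FBgn0041205, 2R at 24785514-24787411, minus strand) came closer, with a pooled signal of 128.1 and rank 6954 at a summit 100 bp downstream of its start. The replicates placed it alike, at rank 7863 in replicate 1 (signal 66.7) and 7765 in replicate 2 (signal 56.6).

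Relish is the transcription factor at the end of the Imd pathway, and its gene had a pair of promoter summits that were each matched in 1 replicate only. *Rel* (FBgn0014018, 3R at 9044183-9047977, minus strand) had its highest summit in the 5′ UTR 43 bp downstream of the start of Rel-RB, with a pooled signal of 268.9 and rank 2248. In replicate 1 the peak had signal 294.0 and rank 542, while replicate 2 had no summit within 100 bp. A second summit 425 bp upstream of the first start had signal 162.3 and rank 4937. It ranked 2243 in replicate 2 (signal 133.3), while the nearest summit of replicate 1 was the one 677 bp upstream of the start, outside the promoter limit. The summit 425 bp upstream was also 249 bp from a start of *Nmdmc* and 243 bp from a start of *Mst85C*. *Nmdmc* is for an enzyme of folate metabolism, and *Rel* lies inside its span. The summit 677 bp upstream was 3 bp from a start of *Nmdmc* and 9 bp from a start of *Mst85C*. The promoter count of *Rel* thus rested on the 5′ UTR summit in replicate 1 and, in replicate 2, on the summit that 3 genes share.

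**Figure D2:**
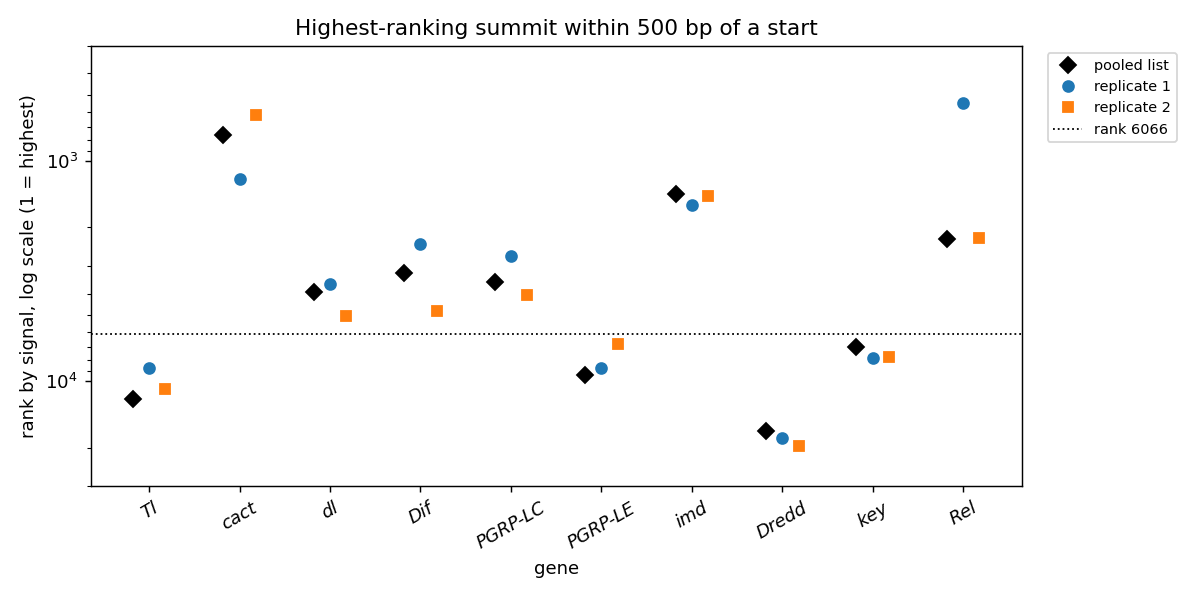
Rank by signal (logarithmic axis, rank 1 highest and at the top) of the highest-ranking summit within 500 bp of a start, for each of the 10 genes in the pooled list and in each replicate's list. The dotted line marks rank 6066, the size of the thresholded list; *cact*, *dl*, *Dif*, *PGRP-LC*, *imd* and *Rel* lie above it in all 3 lists, and *Tl*, *PGRP-LE*, *Dredd* and *key* below it in all 3.

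When each replicate's 6066 peaks of highest signal were read alone, 6 of 10 genes had a promoter summit in replicate 1, against 22.9% of all genes, and the same 6 of 10 in replicate 2, against 27.9%. In the full lists, which include background, all 10 genes had one: 10 of 10 in the pooled list, where 55.8% of all genes did, 10 of 10 in replicate 1 (52.7%) and 10 of 10 in replicate 2 (55.1%). The plot of ranks at the starts shows this order, with *cact* and *imd* high in both replicates and *Dredd* lowest. The *imd* summits plotted were nearer to a *Dp1* start, and the *Dredd* summits nearer to a *su(sable)* start.

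Of the 22 member summits, 17 had a summit within 100 bp in both replicates, where 86.9% of all thresholded summits did. The 5 without were both promoter summits of *Rel*, the first-start summit of *dl*, the summit 30 bp downstream of imd-RB and an intron summit of *PGRP-LC*. A match among the 6066 highest peaks of both replicates held for 14 of 22, where 55.1% of all thresholded summits had it. The ratio of the poorer to the better replicate rank had a median of 1.84 over the 17 matched member summits (range 1.01 to 9.83), and 2.18 over all 5269 matched summits (range 1.0 to 160.0). The better rank was in replicate 1 for 11 of the 17, and for 2616 of the 5269. The 17 are not independent, since 7 are from *cact*.

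**Figure D3:**
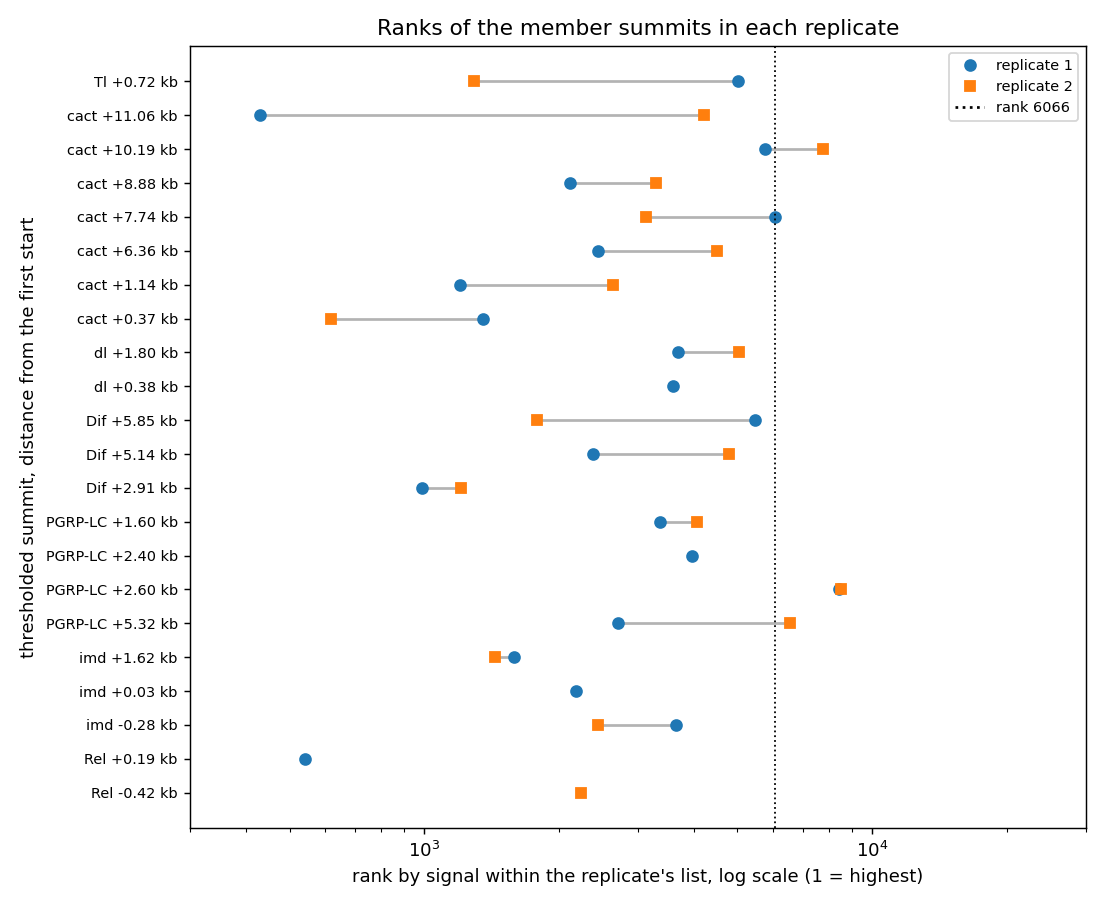
Rank by signal within each replicate's list (logarithmic axis, rank 1 highest) for the 22 thresholded summits at the members, each named by its gene and its distance in kb from the first start. Circles are replicate 1, squares are replicate 2, a grey line joins the pair and the dotted line marks rank 6066; 5 summits have a point in 1 replicate only, for want of a summit within 100 bp in the other, and the *cact* summit at +11.06 kb has the widest gap, rank 428 in replicate 1 and 4209 in replicate 2.

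Of the members, 7 have more than 1 annotated start. Among these, 4 of 7 first starts had a thresholded summit within 500 bp, those of *cact*, *dl*, *imd* and *Rel*, where 32.9% of the first starts of all genes with several starts did. Of their later starts 11 of 14 had one, where 30.3% of all such starts did. The difference between first and later starts was not tested. Starts that lie close together share summits, so these counts are not of separate peaks. Of the 12 summits within 500 bp of a start, 7 were upstream of the nearest and 5 downstream. The other 10 were in a gene body only. By annotation, 15 of the 22 were in an intron, 5 in a 5′ UTR and 2 outside the gene.

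The 500 bp limit left few summits near its edge. Just inside were the *imd* summit at 451 bp and the *Rel* summit at 425 bp, and just outside were summits 677 bp upstream of *Rel* (signal 175.7), 680 bp upstream of *dl* (signal 226.0) and 716 bp downstream of the *Tl* start. Over their bodies, the members held 20 thresholded summits in 113.7 kb, or 1.76 per 10 kb, against 0.477 per 10 kb over all protein-coding genes, with overlapping genes counted in each. The density was uneven: *cact* had 5.31 per 10 kb, *imd* 5.26, *PGRP-LC* 4.2, *Rel* 2.64, *Dif* 1.51, *dl* 1.48 and *Tl* 0.231. *PGRP-LE*, *Dredd* and *key* had 0. Short genes reach a high density with few summits, as the 2 of *imd* and the 1 of *Rel* show.

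Other genes of the pathways were read from 6 lists of 90 genes in all, of which 24 (26.7%) had a thresholded promoter summit, close to the 25.9% of all protein-coding genes. The counts ran from 0 of 34 to 8 of 13 between lists, with no test made. These lists too were chosen with earlier results of these data known. Among regulators of the Imd pathway, most of them inhibitors, 8 of 13 had one (61.5%). The highest was at *POSH*, for a ubiquitin ligase, with a pooled signal of 953.9 and rank 158, and it ranked 276 in replicate 1 and 140 in replicate 2. *scny*, for a deubiquitinase, had 543.9 and *PGRP-LA*, for another recognition protein, had 527.0. *PGRP-LF*, for a receptor that inhibits the pathway, had 436.1. *PGRP-LA* and *PGRP-LF* flank *PGRP-LC*, at 0.47 and 1.27 kb, and their promoter signals were both more than the 202.2 of *PGRP-LC*. The *POSH* summit was also within 500 bp of a start of *Ns2*.

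Inside the cell, 5 of 10 Toll signalling genes had a promoter summit. The 5 in the thresholded list were *Myd88*, the adaptor (427.5), *Deaf1*, a transcription factor (325.8), *Traf6* (283.9), *pll*, the kinase Pelle (237.4), and *tub*, the adaptor Tube. Of these, *Deaf1*, *Traf6* and *pll* each shared the summit with the start of another gene. In replicate 1 *pll* ranked 9491 and *tub* 8355, and in replicate 2 they ranked 1363 and 3454. Of the Imd signalling components, 4 of 10 had one (40.0%, against 25.9% of all genes). They were *eff*, a ubiquitin-conjugating enzyme (371.4), *Uev1A* (281.9) and *ben* (275.5), which form another such enzyme, and *Tab2*, a partner of the kinase Tak1 (153.8). The *Uev1A* summit was shared with *Membrin* and the *Tab2* summit with *mip40*, and *Tab2* ranked 6466 in replicate 1 and 4488 in replicate 2.

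Upstream, 5 of 15 genes of the Toll activation cascade had a promoter summit (33.3%, against 25.9% of all genes). The highest were *GNBP1* with 327.1 and *GNBP3* with 308.4, both for recognition proteins, then the protease *modSP* with 154.8 and the ligand gene *spz* with 151.9. The *GNBP1* summit was shared with *GNBP2* and the *GNBP3* summit with *orb2*. Of 8 other Toll receptors, *Toll-7* (524.2) and *18w* (173.6) had one (25.0%, against 25.9% of all genes).

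Antimicrobial effector genes had none: 0 of 34 had a thresholded summit at a start or in the body. The share was 29.8% for all genes and 26.3% for all genes under 10 kb. Among the 6066 highest peaks of a replicate, 0 of 34 had one at a start in replicate 1 (22.9% of all genes) and 0 of 34 in replicate 2 (27.9%). In the full lists 7 of 34 had a summit at a start in the pooled list (55.8% of all genes), 7 in replicate 1 (52.7%) and 11 in replicate 2 (55.1%). Several effector genes are short, near-identical neighbours, such as *CecA1* and *CecA2*, and how reads that match more than 1 place were treated is not given in the sources used here. The values for such copies are therefore uncertain.

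**Figure D4:**
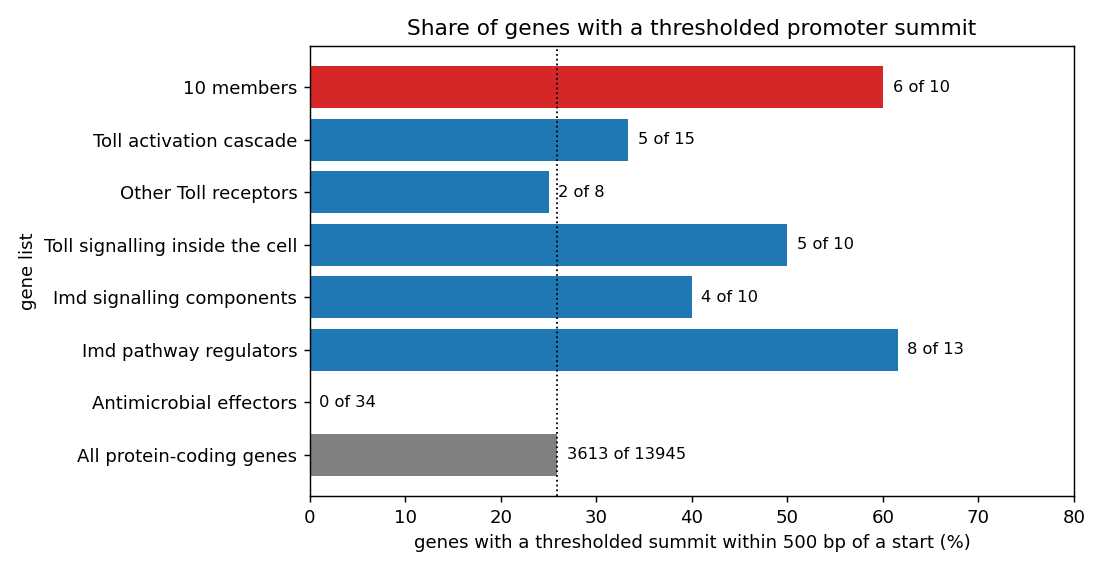
Percent of genes with a thresholded summit within 500 bp of a start, for the 10 members, for each of the 6 lists of other pathway genes and for all protein-coding genes, with the count beside each bar; the dotted line is the share of all genes, 25.9%. The members stand at 6 of 10 and the Imd regulators at 8 of 13, and the antimicrobial effectors at 0 of 34.

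No searched word was in most of the members' windows. Windows of 200 bp at the summit were searched on both strands for the word TATCGATA of the DNA replication-related element, for the repeat GAGAGA, for the repeat CACACA, for GATAAG of GATA factors and for the kappaB site of NF-κB factors; the first and the fourth can share letters where they adjoin. CACACA was in 7 of the 22 member windows, at *Dif*, *PGRP-LC*, *cact* and *imd*, and in 21.8% of the windows of all 6066 summits. GAGAGA was in 2, at *PGRP-LC* and *cact*, and in 14.3% of all. TATCGATA was in 0 of 22 and in 2.74% of all, GATAAG in 0 of 22 and in 15.4% of all, and the kappaB site in 0 of 22 and in 1.19% of all. A trinucleotide repeated at least 5 times in tandem, searched for after the *Tl* window had been read, was in 1 of 22 and in 1.04% of all. The median G and C content was 41.0% for the members (range 21.5 to 54.0) and 41.5% for all summits. A match describes letters and is no evidence of binding by a factor.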

How the data were processed

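Peak lists from anti-GFP chromatin immunoprecipitation of whole adult male flies were used, 1 per replicate, 1 pooled and 1 thresholded, all on dm6. The authors called peaks against a control and derived the thresholded list from both replicates' lists and the pooled one, per the notes deposited with the files; for the aligner, the caller and the irreproducible discovery rate threshold, the choice is not given in the sources used here. The deposited signal value has no stated scale, and the deposited −log10 q-value is at its highest in 4776 of 6066 thresholded peaks. Depth is unknown, since the lists hold no reads. Lists on dm3 were not used here.

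Summits were set against Ensembl release 115. The members' coordinates are the same in RefSeq, whose dm6 genome gave the sequences. A summit counted for every gene with a start within 500 bp or a body around it. Summits were matched between lists within 100 bp, a limit set after the shifts had been seen. Counting and matching were tested on simulated peaks. No model was fitted and no p-value computed. The members and lists were chosen with earlier results of these data known. The genes named are the members, genes that share a member's promoter summit and, of each list, up to 4 with the highest promoter signal; the others named were chosen after their values were seen. Other distances, peak subsets, replicates taken singly and a 100 bp window were tried. Python 3.11.15, pandas 2.3.3, numpy 2.4.6 and matplotlib 3.10.9 were used.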

Additional observations from a re-analysis of the deposited data

How the results depend on the processing

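The count of members with a thresholded promoter summit, 6 of 10, was 3 (*cact*, *imd* and *Rel*) among the 3033 thresholded peaks of highest signal; fewer peaks are read there, and the share of all genes was 15.4%. The count was 6 at 250 bp (21.6% of all genes) and with peaks at the highest −log10 q-value (21.9%). It was also 6 with a summit counted only for the closest start (20.5%). With *Tl* added it was 7 at 1000 bp (29.7%) and with any overlap of the peak (27.8%). With each replicate's peaks of highest signal read alone it was 6 in both cases, which is the count already given in the Results. The count at a start or in the body was 7 in both. The thresholding was not repeated with a replicate left out, so these counts are no separate check of the thresholded list. Below, without replicate 1 means the highest peaks of replicate 2 alone, and without replicate 2 means those of replicate 1 alone. The count at a start or in the body was 5 among the 3033 highest peaks (18.3% of all genes). It was 7 at 250 bp (27.4%), at 1000 bp (32.1%) and with peaks at the highest −log10 q-value (25.5%). The 24 genes of the other lists ranged from 16 among the 3033 highest peaks (15.4% of all genes) to 26 at 1000 bp (29.7%). They were 24 without replicate 1 (27.9%) and 19 without replicate 2 (22.9%). Of 41 values for single lists and motifs, 33 stayed within 1.5 times and 8 did not: the Toll activation cascade gave 2 among the 3033 highest peaks and 3 without replicate 1, the other Toll receptors 1 there and 1 at 250 bp, Toll signalling 3 without replicate 2 and 3 by nearest start, effectors 1 (*Drsl6*) at 1000 bp, and GAGAGA 1 in 100 bp windows. No paired analysis was possible because there is 1 group. Without read counts or a mock precipitation, a gene below the threshold is not shown to be unbound, and regions recovered without the tagged protein were not removed.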
